A study of Mus musculus with 2 samples.

Results

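The cells described here are cochlear cells of the mouse that carried RNA of 2 transporter genes at once, Slc6a13 and Slc22a2. They were chosen by their measured UMIs. A UMI is 1 counted RNA molecule. Barcodes were kept from 300 detected genes up and up to 20% of UMIs from mitochondrial genes, and a kept cell was included when it had at least 1 UMI of Slc6a13 and at least 1 UMI of Slc22a2. This gave 143 of 19953 kept noise-only cells and 257 of 22672 kept AAV-Isl1 cells, 400 of 42625 in all. The study asked how gene expression in the adult cochlea after damaging noise differs when the ear first receives Isl1, a LIM-homeodomain transcription factor, from an adeno-associated virus (AAV). The mice were wild-type CBA/CaJ aged 4 to 6 weeks. In the AAV-Isl1 group the cochlea received the virus and then noise of 105 dB at 1 to 20 kHz for 2 hours. The noise-only group was the opposite, untreated ears of the same mice, so both groups shared the noise. The labels name the tissue as sensory epithelium, taken 2 days later, and each group is 1 library pooled from 5 mice. With 1 library per group no difference between the groups could be tested, and every interval below is an exact 95% interval for counting error only: Clopper-Pearson for shares, Poisson for levels and conditional binomial for ratios. Group, ear and library cannot be told apart.

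The matrices held 21068 barcodes (38330528 UMIs) for noise only and 24209 (40268563 UMIs) for AAV-Isl1, although the labels give about 1600 cells loaded for a target of 1000; kept barcodes are called cells here. Kept cells had medians of 1094 and 1102 UMIs. Hair cell markers, which define the labelled sensory epithelium, summed to 51.1 and 35.1 CPM (UMIs per 1000000 UMIs of the cells summed) in the transporter cells, against 116 and 157 CPM in all other kept cells, and Myo7a was at 0 in both libraries. The libraries had 145 barcodes in common, of which 2 and 1 belonged to transporter cells.

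Slc6a13 encodes GAT2, a sodium-coupled carrier of GABA, taurine and betaine, and Slc22a2 encodes OCT2, a carrier of organic cations. Cells that wall off a fluid compartment, such as the barrier cells of the brain's arachnoid membrane and the epithelium of the kidney tubule, are known for sets of such carriers, which clear drugs, metabolites and transmitters across the cell layer. In the cochlea the fibrocytes of the spiral ligament and the basal cells of the stria vascularis are mesenchymal cells joined by gap junctions, and ligament fibrocytes are known for Coch and Otos. Slc6a13 lies on chromosome 6 at 121300227 to 121337733 (GRCm38, plus strand), directly beside Slc6a12 at 121343076 to 121365775. Slc22a2 lies on chromosome 17 at 12584132 to 12628488, next to Slc22a3.

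The transporter cells were marked by further genes beyond the pair that chose them. Other carriers of organic ions and amino acids were among the highest, and Ptgds alone gave at least 1 UMI in 5. Ptgds, the lipocalin-type prostaglandin D synthase, a secreted enzyme that also binds retinoids, made up 25.1% of all UMIs of the noise-only transporter cells and 20.2% of those of the AAV-Isl1 cells. In all other kept cells it made up 1.46% and 2.15%. Per cell the median Ptgds share was 24.7% (quartiles 13.8 and 32.6) and 20.1% (quartiles 11.7 and 29.1).

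The rule genes themselves are given as a description only, since they chose the cells. Slc6a13 had 463 UMIs in the noise-only transporter cells, with a median of 3 and at most 18 per cell, and 522 UMIs with a median of 2 and at most 6 in the AAV-Isl1 cells. Slc22a2 had 366 UMIs (median 2, at most 10) and 438 UMIs (median 1, at most 8). Both genes were seldom deep: 22 noise-only cells (15.4%) and 73 AAV-Isl1 cells (28.4%) had exactly 1 UMI of each. Those cells, just inside the threshold, had medians of 6.50 and 5 of the 20 leading genes defined next. Cells with at least 2 UMIs of each numbered 67 and 69 and had medians of 13 and 8. Just outside the threshold, the 381 and 1128 cells with exactly 1 of the pair had medians of 3 and 4 leading genes and median Ptgds shares of 4.02% and 10.8%.

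Free RNA in the droplets bears on a rule of 1 UMI. Erythroid cells should lack both genes and had medians of 2728 and 2060 UMIs. They showed Slc6a13 in 0 of 106 noise-only cells. Read as at most 3 counts, a fixed limit rather than an exact interval, this allows a share of up to 2.83%. In the AAV-Isl1 library 11 of 313 had Slc6a13, 3.51% (1.77 to 6.20). Macrophages, at medians of 1999 and 1510 UMIs, showed Slc6a13 in 0.825% and 3.06% and Slc22a2 in 0.825% and 2.27%. In all other kept cells the shares were 1.35% and 3.73% for Slc6a13 and 0.575% and 1.30% for Slc22a2. In the AAV-Isl1 library the Slc6a13 share in erythroid cells was close to that in all other cells. Slc22a2 was seen in 0 of 106 noise-only erythroid cells. In the AAV-Isl1 library 3 of 313 had Slc22a2, 0.958% (0.198 to 2.78), an interval that includes the 1.30% of all other cells. A UMI of either gene alone was therefore not read there as expression.

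The 20 leading genes were the genes with the highest fold in the noise-only transporter cells over all other kept cells of that library, among genes with at least 50 UMIs there and seen in at least 10% of the cells. Their folds in that library, which chose them, ran from 16.5 to 83.5 with a median of 34.8. In the AAV-Isl1 library, which did not choose them, 20 of 20 were at least 4-fold higher in the transporter cells, with folds of 6.20 to 35.4 and a median of 14.7. Of all genes with at least 50 UMIs and seen in at least 10% of the cells, 6.40% passed 4-fold in the noise-only cells and 4.15% in the AAV-Isl1 cells, the leading genes included. The set was therefore found in both libraries, with the lower median fold in the AAV-Isl1 library. Cells outside the rule carried more of the set there too. At least 6 of the 20 genes were seen in 206 (1.04%) of the other noise-only cells and 532 (2.37%) of the other AAV-Isl1 cells. These were most of the 335 and 690 kept cells with at least 6. Levels in erythroid cells were also mostly higher in the AAV-Isl1 library. Ptgds stood there at 2027 and 8260 CPM, Nnat at 6.93 and 33.9 CPM and Itih2 at 6.93 and 20.0 CPM. Slc13a3, Slc22a8 and Kit went the other way. The part of the cells outside the rule and of free RNA in the lower folds was not tested.

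**Figure D1:**
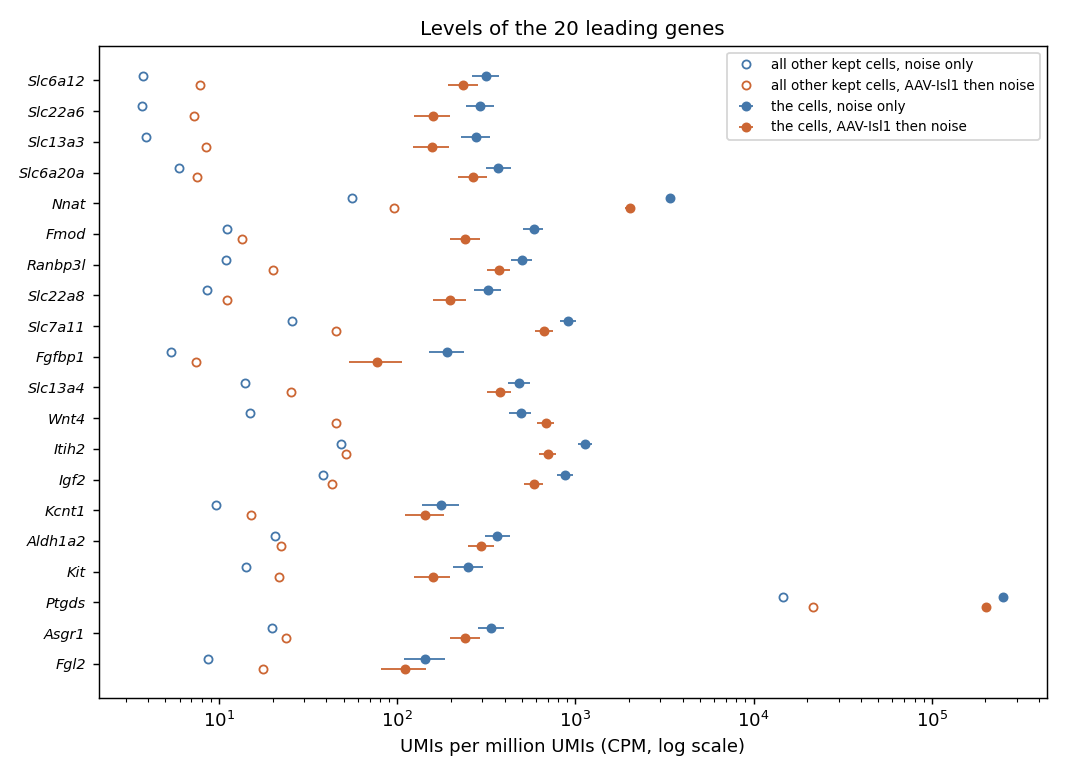
Level of each of the 20 leading genes in CPM (log axis), in the Slc6a13 and Slc22a2 cells (filled, with exact 95% Poisson intervals) and in all other kept cells (open), for each library. In both libraries each filled point lies to the right of its open point, and Ptgds lies far to the right of the rest.

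Carriers made up 7 of the 20 leading genes. Slc6a12, the betaine and GABA carrier BGT1 and the genomic neighbour of Slc6a13, stood at 314 CPM against 3.76 in other noise-only cells, and at 235 against 7.86 CPM in the AAV-Isl1 library. It was seen in 41.3% and 26.8% of the transporter cells. Slc22a6 (OAT1) and Slc22a8 (OAT3), neighbouring genes on chromosome 19 for organic anion carriers, stood at 292 and 324 CPM (noise only) and 158 and 197 CPM (AAV-Isl1). Slc13a3, a sodium-dicarboxylate carrier, stood at 277 and 156 CPM, and Slc13a4, a sodium-sulfate carrier, at 484 and 375 CPM. The imino acid carrier Slc6a20a stood at 370.0 and 265 CPM, and Slc7a11, the cystine-glutamate exchanger, at 913 and 669 CPM, the highest of the carriers in both libraries. Slc7a11 was also the most widespread of these, seen in 81.1% and 59.1% of the transporter cells.

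Not every relative was shared. Slc22a3, the neighbour of Slc22a2 and also an organic cation carrier, had 4 and 13 UMIs, at 6.57-fold (1.73 to 17.8) and 8.15-fold (4.23 to 14.4) over other cells. Slc6a11 (GAT3) had 0 UMIs in both libraries, which at the fixed limit of 3 counts allows up to 7.30 and 6.58 CPM. The taurine carrier Slc6a6 was lower than in other cells, at 12.2 against 113 CPM and 17.5 against 84.7 CPM. In the list of organic ion and amino acid carriers, 17 of 32 genes had at least 20 UMIs over both libraries, and 10 of 17, the same 10 in both libraries, were at least 4-fold higher than in other cells. Of all 5242 genes with at least 20 UMIs, 2.69% (noise only) and 1.95% (AAV-Isl1) were. This list was drawn up with earlier results of these data known and includes 7 leading genes, so its count is a description.

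The other leading genes were of several kinds. Nnat, which encodes the small membrane protein neuronatin, was the highest after Ptgds at 3381 and 2032 CPM. Its 1389 noise-only UMIs came from 107 of the cells, with 106 in the highest. Itih2, an inter-alpha-trypsin inhibitor heavy chain, stood at 1129 and 702 CPM, and Igf2, a growth factor, at 876 and 583 CPM. Fmod, the collagen-binding proteoglycan fibromodulin, stood at 582 and 241 CPM. Wnt4, a secreted Wnt ligand, stood at 492 and 680.0 CPM. Aldh1a2, which makes retinoic acid, stood at 365 and 296 CPM, and Kit, a receptor tyrosine kinase, at 251 and 158 CPM. Ranbp3l, Asgr1, Fgfbp1, Kcnt1 and Fgl2 completed the set, between 144 and 499 CPM (noise only) and between 76.7 and 371 CPM (AAV-Isl1). Fgl2 was also seen in macrophages, at 40.5 and 70.8 CPM.

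Genes of other lists, also drawn up with earlier results known, are given next. Of the genes for retinoid handling, Crabp2, which delivers retinoic acid, stood at 285 and 267 CPM (12.9-fold and 11.2-fold over other cells). Among mesenchyme and ear transcription factors 5 of 18 measured genes were at least 4-fold higher in each library, and 4 of these were the same. Foxd1 was 7.06-fold and 6.11-fold higher, Zic1 was 8.61-fold and 7.6-fold, and Osr1 was 13.2-fold and 10.1-fold. Pou3f4, a factor of otic mesenchyme, was lower than in other cells at 0.450-fold and 0.617-fold. Of the BMP ligands, Bmp6 was 14.0-fold and 12.1-fold higher and Bmp7 was 10.6-fold and 6.89-fold higher. Of the Wnt ligands beside Wnt4, Wnt6 was 15.5-fold and 10.5-fold higher, and Wnt5a was 3.26-fold and 4.23-fold higher.

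The working label offered a mesenchymal barrier cell or a fibrocyte, and the marker lists were read for both. Of 12 markers of arachnoid or meningeal barrier cells, 5 were at least 4-fold higher and seen in at least 10% of the noise-only transporter cells (Ptgds, Aldh1a2, Slc22a6, Slc22a8 and Igfbp2), and 4 of 12 in the AAV-Isl1 library, the same without Igfbp2. Of all genes seen in at least 10% of the cells, 3.61% and 2.83% were 4-fold higher. Ptgds, Aldh1a2, Slc22a6 and Slc22a8 are themselves leading genes. Ptgds gave 250848 of the list's summed 253056 CPM in the noise-only transporter cells and 202226 of 203711 CPM in the AAV-Isl1 cells. Ptgds also stood at 91612 and 79727 CPM in cells with at least 5 UMIs each of Coch and Otos. Most other barrier markers were not higher. Slc47a1, an efflux carrier of arachnoid barrier cells, had 1 and 5 UMIs and stood below other cells (0.0995-fold and 0.363-fold), and Dpp4, Cdh1 and Abcg2 were also below. Cldn11, of the barrier's tight junctions, was at 1.04-fold and 0.885-fold. Foxc1 was higher at 2.06-fold and 3.44-fold.

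Most ligament fibrocyte markers were lower than in other cells. None of 10 was 4-fold higher in either library, and their summed level was 1061 CPM against 2760 in other cells (0.384-fold) and 1158 against 2441 (0.474-fold). Coch stood at 737 against 1575 CPM and 590.0 against 1237 CPM, and 110 of its 303 noise-only UMIs came from 1 cell. Otos was at 0.230-fold and 0.254-fold. Kcnk2, a potassium channel of the same list, went the other way at 2.20-fold (1.47 to 3.18) and 3.19-fold (2.22 to 4.45), seen in 12.6% and 11.3% of the transporter cells against 2.46% and 2.30% of other cells. Of 8 strial basal cell markers, Gja1 (connexin 43) passed in the noise-only cells at 6.82-fold and none passed in the AAV-Isl1 cells. The gap junction genes Gjb6 (3.83-fold and 3.52-fold) and Gjb2 (2.45-fold and 2.79-fold) were higher but under 4-fold. Among 11 fibroblast markers Fbln1 (13.2-fold and 8.09-fold) passed in both libraries, and Dcn, the proteoglycan decorin, passed in the AAV-Isl1 library (3.73-fold and 4.74-fold). Summed fibroblast markers stood at 2675 CPM against 892 in other noise-only cells, and at 3455 against 905 CPM in the AAV-Isl1 library. Col1a1 was low, at 26.8 and 46.0 CPM. Mesothelial markers were at 0 for 6 of 8 and 7 of 8 genes. The markers thus went mostly against a ligament fibrocyte and met the barrier list only in part, so the cells are called by their rule.

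**Figure D2:**
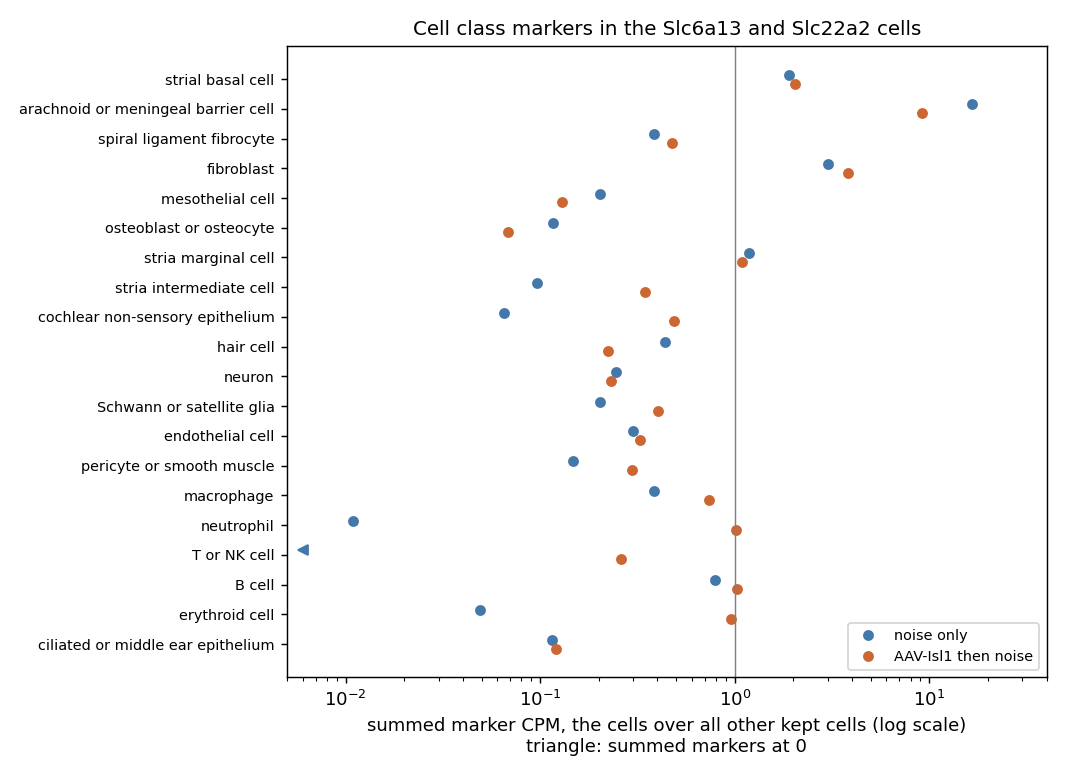
Summed CPM of each marker list in the Slc6a13 and Slc22a2 cells over all other kept cells (log axis), for each library. The arachnoid or meningeal barrier list lies highest at 16.6 and 9.22, and Ptgds makes up most of its sum. The ligament fibrocyte list lies below 1 in both libraries. The neutrophil and erythroid lists lie near 1 only in the AAV-Isl1 library.

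Against more closely defined cells the leading genes also stood apart. Cells with at least 5 UMIs each of Coch and Otos numbered 181 and 276, and 18 and 17 of the 20 leading genes were at least 4-fold higher in the transporter cells than in them. The lowest folds were 2.43 for Kit (noise only) and 2.54 for Ptgds (AAV-Isl1). Against cells with Fxyd2 and Kcnk2 (94 and 64) and cells with Igfbp6 and Ceacam10 (327 and 612), 20 of 20 were. Against cells with exactly 1 of the rule genes none of the 20 was, with medians of 2.43 and 1.82.

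The transporter cells differed among themselves along the same set. The noise-only cells had between 2 and 20 leading genes, with a median of 12, and the AAV-Isl1 cells between 1 and 18, with a median of 6. At least 6 leading genes were present in 129 of 143 (90.2%) and 158 of 257 (61.5%). Depth differed too, with medians of 2256 and 1424 UMIs per cell, while median mitochondrial shares were 7.45% and 6.74%. From 2000 to under 4000 UMIs the medians were 12 leading genes (57 cells) and 9 (55 cells), and from 1000 to under 2000 UMIs they were 9 (51 cells) and 7 (135 cells). Under 1000 UMIs both medians were 5. The genes were chosen in the noise-only cells, so lower numbers in the AAV-Isl1 cells are in part fixed by the choice.

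**Figure D3:**
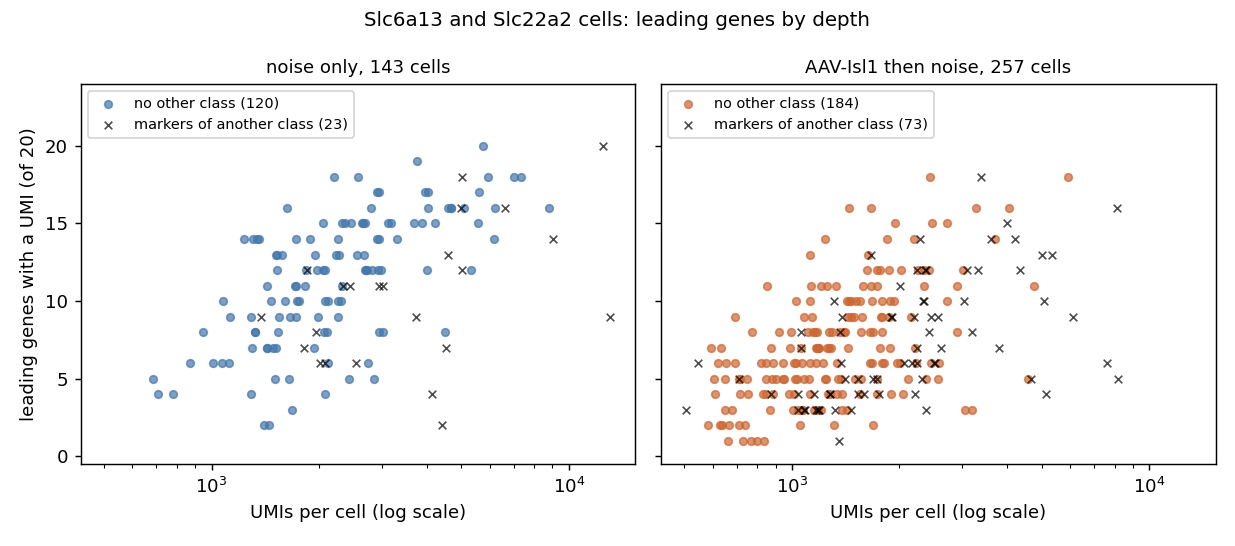
Each point is 1 Slc6a13 and Slc22a2 cell, by its UMIs (log axis) and the number of the 20 leading genes with a UMI; crosses mark cells with at least 4 markers of another class. The AAV-Isl1 cells reach down to fewer UMIs and fewer leading genes than the noise-only cells.

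Markers of other cell types moved with the group. Cells with at least 4 markers of 1 of 15 other classes numbered 23 noise-only cells (16.1%) and 73 AAV-Isl1 cells (28.4%), against 60.7% and 58.7% of all other kept cells. Schwann or satellite glia markers accounted for 19 and 48 of them. Summed erythroid markers stood at 377 and 18866 CPM and summed neutrophil markers at 7.30 and 7702 CPM. In all other kept cells the erythroid sums were 7732 and 19766 CPM and the neutrophil sums 668 and 7581 CPM. Both sums were thus higher in the AAV-Isl1 library outside the transporter cells too. Of the AAV-Isl1 transporter cells, the 5 with the most held 71.8% of the erythroid and 98.7% of the neutrophil marker UMIs. Without the transporter cells that carried another class, the erythroid sums were 61.5 and 1195 CPM and the neutrophil sums 6.47 and 121 CPM. No doublet caller was run, and the part of droplets with more than 1 cell in these values was not tested.

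A second difference ran between cells with and without each leading gene. In 19 of 19 such splits of the noise-only cells and 18 of 19 of the AAV-Isl1 cells (splits with at least 20 cells on each side), Dcn was lower in the cells that had the gene, with median ratios of 0.462 and 0.548. Fmod, which gave the lowest Dcn ratio and the highest Nnat ratio of the noise-only splits, serves as the example. Dcn stood at 1139 CPM in the 88 noise-only cells with Fmod and at 3805 CPM in the 55 without. In the AAV-Isl1 library it stood at 1371 and 3288 CPM (62 and 195 cells). Apod, an apolipoprotein of fibroblast-like cells, followed Dcn, at 3543 against 8765 CPM and 5802 against 8400 CPM. Igfbp5, an IGF-binding protein, was at 62.5 against 650.0 CPM and 162 against 730.0 CPM. Nnat went the other way, at 4321 against 1179 CPM and 3770 against 1246 CPM. Over all splits Nnat was higher in cells with the gene in 16 of 18 (noise only) and 17 of 18 (AAV-Isl1), with median ratios of 2.01 and 2.71. Apod and Igfbp5 were each lower in 18 of 19 splits of each library. Cells with Fmod were deeper (medians of 2562 against 2008 UMIs for noise only, 1756 against 1340 for AAV-Isl1). Ptgds was also higher in cells with Fmod, at 270067 against 205863 CPM in the noise-only cells and 242616 against 183931 CPM in the AAV-Isl1 cells. Dcn, Apod, Igfbp5, Nnat and Ptgds were picked for these splits after their values were seen. The splits reuse the same cells, so their counts are a description.

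The share of transporter cells was higher in the AAV-Isl1 library. It was 0.717% (0.604 to 0.844) of kept noise-only cells and 1.13% (1.000 to 1.28) of kept AAV-Isl1 cells, a ratio of 1.58 (1.28 to 1.95). This ratio changed with how the cells were chosen. With at least 2 UMIs of each gene there were 67 and 69 cells and the ratio was 0.906 (0.638 to 1.29). Among transporter cells with at least 6 leading genes it was 1.08 (0.849 to 1.37), from 129 and 158 cells. That limit rests on genes chosen in the noise-only cells, of which 90.2% passed it against 61.5% of the AAV-Isl1 cells, so part of this lower ratio is fixed by the choice. With Slc6a13 alone it was 2.35 (2.09 to 2.63), from 410 and 1093 cells, and the background of Slc6a13 in erythroid cells and macrophages was also higher in that library. Without the cells that carried another class it was 1.35 (1.07 to 1.71). With only cells of at least 1000 UMIs, each thinned to 1000, the ratio was 1.68 (1.24 to 2.30), from 65 and 127 cells. The excess in the AAV-Isl1 library lay among cells of under 2000 UMIs. Under 1000 UMIs there were 5 and 51 transporter cells (0.0550% and 0.509% of kept cells of that depth). From 1000 to under 2000 there were 51 and 135 (0.864% and 1.75%). From 2000 to under 4000 there were 57 and 55 (1.69% and 1.71%), and from 4000 up there were 30 and 16 (1.88% and 0.920%).

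**Figure D4:**
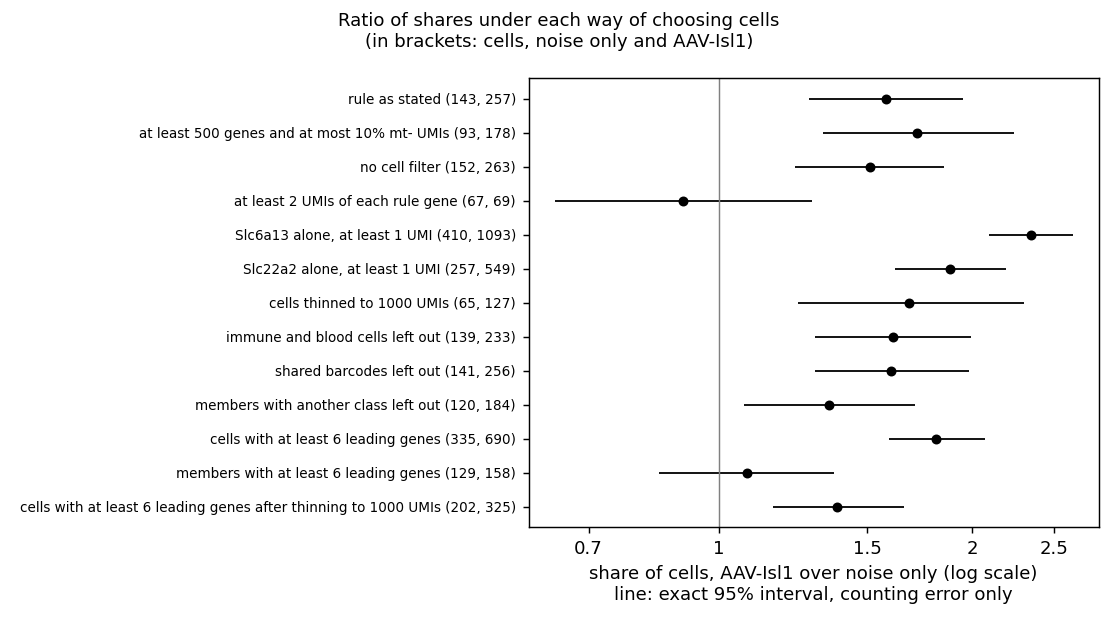
Ratio of the share of cells in the AAV-Isl1 library to that in the noise-only library (log axis) with its exact 95% interval, for the rule as stated and each other way of choosing the cells; cell numbers are in brackets. The intervals for at least 2 UMIs of each gene and for transporter cells with at least 6 leading genes include 1, and the others lie above 1.

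Isl1 itself was scarce. It had 7 UMIs in 2 of 143 noise-only transporter cells, 6 of them in 1 cell, and 16 UMIs in 9 of 257 AAV-Isl1 cells, or 1.40% (0.170 to 4.96) and 3.50% (1.61 to 6.54) of cells. Its level was 17.0 and 35.1 CPM, below the 81.7 and 116 CPM of all other kept cells, and the ratio of 2.06 (0.801 to 5.92) was not told from 1. Erythroid cells showed Isl1 in 1.89% and 1.92%. The labels do not say whether vector RNA is counted as Isl1.

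Levels within the transporter cells were then compared between the libraries as ratios of CPM, AAV-Isl1 over noise only. Of 2134 genes with at least 50 UMIs over both libraries, 202 (9.47%) were at least 1.5-fold higher in the AAV-Isl1 library and 117 (5.48%) at least 1.5-fold lower. Of these calls 63.3% were higher, but 47.3% were with Ptgds left out of the totals. The median log2 ratio was 0.05.

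The leading genes as a set were lower in the AAV-Isl1 transporter cells. Of the 20, 19 had ratios below 1, the median was 0.715, and the interval of 16 lay below 1. The set was chosen in the noise-only library for being high there, so this direction is in part fixed by the choice. Fgfbp1 (0.404) and Fmod had the lowest ratios of the set, and Fmod had 239 and 110 UMIs, 582 and 241 CPM and a ratio of 0.415 (0.328 to 0.522). Slc22a6 had a ratio of 0.540 (0.398 to 0.730), Slc13a3 0.561 (0.411 to 0.761) and Nnat 0.601 (0.553 to 0.654). Ptgds had a ratio of 0.806 (0.799 to 0.813), but of 0.997 in the 65 and 127 transporter cells left after thinning to 1000 UMIs. There Fgfbp1 (0.394), Fmod (0.384), Slc22a6 (0.589), Slc13a3 (0.318) and Nnat (0.523) stayed lower. In transporter cells with at least 6 leading genes and no other class, called the narrower set below, 17 of 20 were below 1 and the median was 0.876, with Fmod at 0.648 and Ptgds at 0.939. In all cells with at least 6 leading genes, transporter cells or not, the median was 0.919. Both sets keep cells by these same genes, which moves their ratios toward 1, so neither is a check on them. Wnt4 was the leading gene that went the other way, with 202 and 310 UMIs and a ratio of 1.38 (1.15 to 1.66), though it was 0.699 after every cell was thinned to 1000 UMIs. In all other kept cells the Wnt4 ratio was 3.04, and the other leading genes named here also had ratios above 1. Fgfbp1 was at 1.38, Fmod at 1.22, Slc22a6 at 1.96, Slc13a3 at 2.18, Nnat at 1.71 and Ptgds at 1.48.

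The genes with the lowest ratios had few UMIs in the AAV-Isl1 cells. Cyp26b1, which degrades retinoic acid, had 50 UMIs in 9 noise-only cells and 7 UMIs in 2 AAV-Isl1 cells, at 122 and 15.3 CPM and a ratio of 0.126 (0.0482 to 0.279). Rbp4, a retinol-binding protein, stood at 156 and 50.4 CPM (0.324). The retinoid and thyroid hormone list that holds both had 2 of 9 measured genes at least 1.5-fold lower, 2 of 9 at least 1.5-fold higher and a median log2 ratio of -0.14. Slc5a5, the sodium-iodide symporter, stood at 110.0 CPM in 26 cells and 21.9 CPM in 10 cells, a ratio of 0.20 (0.0899 to 0.403), and was 2.22 and 2.60 CPM in all other kept cells. Fibin (0.225), Plxna2, a semaphorin receptor subunit (0.260), and Sfrp1, a secreted Wnt inhibitor (0.308), followed. Gja1 stood at 102 and 35.1 CPM (0.343) and the adhesion molecule Alcam at 382 and 136 CPM (0.356).

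These ratios stayed below 1 in other sets of cells but were mostly nearer to 1. With at least 6 leading genes and no other class, Cyp26b1 was at 0.245, Slc5a5 at 0.269, Plxna2 at 0.263, Rbp4 at 0.178, Gja1 at 0.385 and Alcam at 0.50. In all cells with at least 6 leading genes, transporter cells or not, Cyp26b1 was at 0.302, Slc5a5 at 0.592, Plxna2 at 0.400, Rbp4 at 0.437, Gja1 at 0.761 and Alcam at 0.641. In all other kept cells the ratios of Plxna2, Gja1 and Alcam were 1.09, 1.06 and 1.24. Pcp4 had the lowest ratio of all (0.0530), but 100 of its 102 noise-only UMIs came from 1 cell, and without cells of another class it was 4.52.

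The highest ratios belonged to blood genes in few cells. Camp, Ngp and Retnlg, neutrophil granule and secreted proteins, had 0 UMIs in the noise-only cells and 325, 228 and 157 UMIs in 3, 5 and 5 AAV-Isl1 cells, at least 97.6-fold, 68.5-fold and 47.1-fold higher against 3 counts over the noise-only transporter cells. S100a8 had 2 and 1309 UMIs, 643 of the latter in 1 cell, and a ratio of 590 (163 to 4873). H2-Aa and H2-Ab1, MHC class II chains of antigen-presenting cells, had 1 UMI each in the noise-only library and 61 and 60 in 13 and 7 AAV-Isl1 cells, with ratios of 54.9 (9.5 to 2205) and 54.0 (9.34 to 2170). In all other kept cells the ratios of Camp, Ngp, Retnlg and S100a8 were 10.6, 9.23, 19.3 and 11.2. Those of H2-Aa and H2-Ab1 were 4.40 and 4.45, so all 6 genes were higher in that library outside the transporter cells too. Summed macrophage markers stood at 187 and 425 CPM in the transporter cells, against 485 and 580 CPM in other cells. The part of blood cells in these 6 genes was not tested. Beyond them Rnase4, a secreted ribonuclease, stood at 29.2 and 92.1 CPM with a ratio of 3.15 (1.63 to 6.58), spread over 11 and 32 cells. Sar1a, a GTPase of vesicle budding (2.42), Baz2b (2.34), Tmem60 (2.22) and the small GTPase Rap1b (2.20) followed, each with 37 to 44 UMIs in the AAV-Isl1 library. In the narrower set of cells those 5 genes had ratios between 1.80 and 3.25. In all cells with at least 6 leading genes, transporter cells or not, their ratios were nearer to 1. Rnase4 was at 1.04, Sar1a at 0.994, Baz2b at 1.39, Tmem60 at 1.21 and Rap1b at 1.18 there. In the thinned transporter cells Tmem60 was at 0.804 and Rap1b at 1.02, while Rnase4 (2.56), Sar1a (3.33) and Baz2b (1.79) stayed higher.

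**Figure D5:**
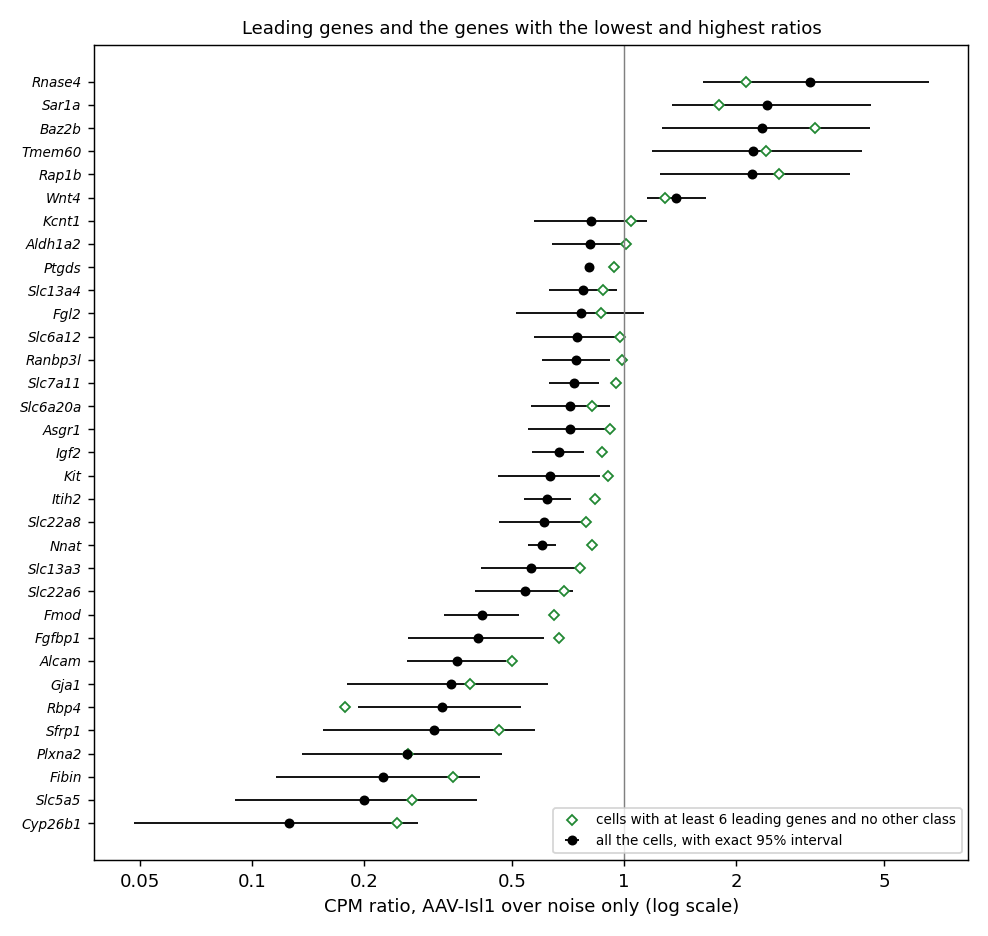
CPM ratio between the libraries (AAV-Isl1 over noise only, log axis) of the leading genes and of the genes with the lowest and highest ratios, with exact 95% intervals, and the same ratio in cells with at least 6 leading genes and no other class (diamonds); Pcp4 and the 6 blood and MHC class II genes are not drawn. The leading genes lie mostly below 1 and their diamonds lie nearer to 1, while the diamonds of Plxna2, Slc5a5 and Rbp4 stay far below 1.

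Of 24 gene lists, 22 had at least 5 measured genes, meaning genes with at least 20 UMIs over both libraries. Among all 5242 such genes 15.8% were at least 1.5-fold higher, 10.3% at least 1.5-fold lower, and the median log2 ratio was 0.06. The lists differ in size and level from all genes, so they are described by their counts. In 4 of 22 lists the median lay at least 0.3 from that of all genes.

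Organic ion and amino acid carriers had a median of -0.37, with 12 of 17 measured genes below 1, 5 of 17 at least 1.5-fold lower and 1 at least 1.5-fold higher. These include 7 leading genes, all below 1 and chosen for being high in the noise-only cells. Without them the median of the other 10 was -0.01, with 5 above 1 and 5 below, so the list as a whole was not lower apart from the leading genes. In all other kept cells the 17 genes had a median of 0.16. Slc3a2, the heavy chain partner of Slc7a11, stood at 248 and 257 CPM (1.03, 0.786 to 1.36). Wnt pathway genes had a median of -0.27, with 7 of 10 below 1 and 4 of 10 at least 1.5-fold lower, and of -0.31 without the leading gene Wnt4. Wnt6 stood at 187 and 110.0 CPM and Dkk3, a secreted modulator, at 119 and 76.7 CPM, whereas Wnt5a stood at 350.0 and 485 CPM.

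Ion transport and potassium recycling genes had a median of 0.41, with 13 of 18 above 1 and 8 of 18 at least 1.5-fold higher. Members with many UMIs went both ways. Atp1b3 was lower at 759 and 603 CPM (0.794), while Atp1b1 was higher at 161 and 349 CPM (2.17, 1.62 to 2.94). The sodium-potassium-chloride carrier Slc12a2 stood at 73.0 and 298 CPM, below the 476 and 502 CPM of other cells in each library. Atp1b1 and Slc12a2 were at lower levels in the transporter cells than in other cells; other classes' markers were also more frequent in the AAV-Isl1 cells, and their part was not tested. The narrower set of cells gave a list median of 0.62.

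MHC class I and antigen processing genes had a median of 0.45, with 9 of 13 above 1 and 6 of 13 at least 1.5-fold higher, against 0.22 in all other kept cells. B2m stood at 268 and 366 CPM (1.37, 1.07 to 1.76), H2-D1 at 204 and 327 CPM and H2-K1 at 73.0 and 173 CPM. The narrower set had a median of 0.24. Immediate early genes lay nearer to all genes: 18 of 20 were above 1 with a median of 0.30, and 6 of 20 were at least 1.5-fold higher. In all other kept cells the median was -0.41. Jun stood at 1933 and 2401 CPM and Fos at 3240 and 3387 CPM, while in other cells Fos stood at 4019 and 2923 CPM. In the narrower set the median was 0.03.

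Beside the lists with larger medians, matrix genes went both ways. Dcn stood at 1937 and 2690 CPM (1.39, 1.27 to 1.52) and Timp3, a metalloproteinase inhibitor, at 1173 and 879 CPM. Apod, of the lipid handling list, stood at 5106 and 7590 CPM (1.49) and was at 1.75 in the narrower set, where Dcn was at 1.68. Of the IGF list Igfbp5 was higher at 239 and 553 CPM (2.32) and Igfbp2 lower at 837 and 357 CPM (0.427). Igfbp2 was at 0.448 and Igfbp5 at 1.88 in the narrower set. Dcn, Apod and Igfbp5 were higher in the AAV-Isl1 library, and in most of the splits by 1 leading gene they were higher in the cells without it. They were picked after their values were seen, so this overlap is a description. Interferon response genes had a median of 0.08 over 22 measured genes, with 12 above 1 and 10 below, which is close to that of all genes. ABC efflux pumps (4 measured genes) and cell cycle genes (2) were too few to describe.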

How the data were processed

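The deposited files are raw counts of UMIs for each gene in each barcode, made by the authors with Cell Ranger 5.0, STAR and the mm10 (GRCm38) build, with Seurat 3.2.2 also named, per the submitters' processing notes (Cell Ranger 5.0.1 in the header of the matrices). The lowest barcode held 500 UMIs. Here 94.7% and 93.7% of barcodes were kept. Counts were summed over the chosen cells of each library and scaled to CPM (UMIs per 1000000 UMIs of those cells), which makes every gene's CPM depend on the share taken by Ptgds. Cells were neither clustered nor batch-corrected, and no doublet caller was run. Ratios rest on genes with at least 50 UMIs over both libraries, list medians on 20. Named ratios are the 12 highest and 12 lowest among genes with at least 50 CPM in 1 library, an interval that excludes 1 and a level at or above that of other cells where higher; mitochondrial, ribosomal, hemoglobin, immunoglobulin and unnamed genes were not candidates. From each list described, the genes with the most UMIs are named, and further members were named after their values were seen. Thinning drew 1000 UMIs per cell and left out shallower cells (5 and 51 transporter cells). Positions are from GENCODE vM21, in which 32235 of 32285 gene IDs matched. Numpy 2.4.6 and scipy 1.17.1 were used, and the functions were tested on simulated data. The cells, lists and markers were chosen with earlier results of these data known. Some genes that the rules would name are not reported here; they stay in the totals, counts and list medians.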

Additional observations from a re-analysis of the deposited data

How the results depend on the processing

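No paired analysis was possible because each group is 1 pooled library, although both ears came from the same mice. The share ratio of 1.58 kept its direction in each alternative but 1: it was 0.906 with at least 2 UMIs of each gene. It was 2.35 with Slc6a13 alone and 1.08 among transporter cells with at least 6 leading genes, and between 1.35 and 1.88 under the others. With cells that had exactly 1 of the pair as the reference, 0 of the 20 leading genes were 4-fold higher. The main counts were 202 higher and 117 lower genes (9.47% and 5.48%). A stricter cell filter (500 genes, 10% mitochondrial UMIs) gave 126 and 100 (7.77% and 6.17%). Thinning to 1000 UMIs gave 43 and 30 (11.2% and 7.79%). Without cells of another class there were 123 and 75 (9.79% and 5.97%). At least 2 UMIs of each gene gave 59 and 53 (8.58% and 7.70%). From 20 UMIs per gene there were 826 and 542 (15.8% and 10.3%). All cells with at least 6 leading genes gave 371 and 332 (6.12% and 5.48%). Transporter cells with at least 6 gave 118 and 80 (7.12% and 4.83%), and those without another class gave 74 and 50 (7.75% and 5.24%). Fewer genes were tested in these (385 to 1658 against 2134), except from 20 UMIs per gene (5242) and in all cells with at least 6 leading genes (6061). Log2 ratios changed sign for Wnt4 (-0.52) and Tmem60 (-0.31) after thinning, for Slc13a4 (0.01), Slc22a8 (0.04), Sar1a (-0.01), Kcnt1 (0.24) and Fgl2 (0.10) in all cells with at least 6 leading genes, for Kcnt1 (0.06) and Aldh1a2 (0.02) in the narrower set, and for Pcp4 at 2.18 without another class, 1.36 without the 5 deepest cells and 2.62 in the narrower set. The 4 lists far from all genes became 2 after thinning and 0 when genes with 1 UMI were counted. Without the leading genes there were again 4, with the carriers (-0.01) replaced by prostaglandin and lipid handling (0.38). The cause of the other changes was not tested. Choices of 6 leading genes, of 4 markers, of totals without Ptgds and of lists without leading genes were made after seeing the data.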
